A study of Homo sapiens with 15 samples.

Results

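The heat shock genes described here were 10 protein-coding genes out of 60107 genes listed per library: HSPA1A, HSPA1B, HSPA8 and HSPH1 of the HSP70 and HSP110 families, the J-domain gene DNAJB1, HSP90AA1, the small heat shock gene HSPB1, the cochaperone gene BAG3, and the mitochondrial chaperonin pair HSPD1 and HSPE1. They were chosen by gene name, as the chaperones of the cytosol and the mitochondrion best known from heat shock. No rule on their values was used, although earlier results of these data were known. Each name matched 1 row in each of the 15 libraries. RNA was sequenced from MIA PaCa-2, a human pancreatic carcinoma cell line, in 5 groups of 3 libraries: vehicle (Ctrl), Lys05, BAQ12, BAQ13 and BAQ12O, each compound at 5 µM for 24 h. Lys05 is a bisaminoquinoline that accumulates in lysosomes and blocks autophagy. BAQ12 and BAQ13 join such a head to hydrocarbon tails of unequal length, and the study gave them as nanoparticles (NPs) that form from the molecules alone. BAQ12O is named in the sample labels only, so nothing is said of its structure or formulation. All groups are 1 established line in culture for which the labels name no genetic change, and they do not say whether libraries of a group came from separate cultures, so p-values here measure the spread between these libraries, which may be technical.

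Heat shock proteins are chaperones that hold, fold or disaggregate other proteins. HSP70 proteins bind short hydrophobic stretches in cycles of ATP hydrolysis that J-domain proteins start and that HSP110 and BAG proteins end by exchanging the nucleotide, and HSP90 matures kinases and receptors that HSP70 hands on. When unfolded protein accumulates in the cytosol, heat shock factor 1 (HSF1) is released from chaperones and binds heat shock elements, inverted repeats of the unit GAA, in the promoters of these genes. HSPA1A, HSPA1B, DNAJB1 and BAG3 are among its most inducible targets, whereas HSPA8 and HSP90AB1 are mostly constitutive.

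The heat shock elements of these genes are shown because they are the sequences through which the family is known to be induced together. In RefSeq promoters (GRCh38.p14, 250 bases before each annotated start, 14 promoters for the 10 genes), a pair of units (GAANNTTC or TTCNNGAA, both strands) was present for 7 of the 10 genes, and a run of 3 units (GAANNTTCNNGAA or TTCNNGAANNTTC, both strands, each of which contains a pair) for 3 of them. Counted by promoter, 7 of the 14 held the pair and 3 held the run of 3 units. The further promoters of HSPD1, DNAJB1 and HSP90AA1 held neither. Among all 35116 promoters of the same length, 11.6% held the pair and 0.441% held the run of 3 units. The match nearest to the start is printed 5′ to 3′ on the strand of the gene, with the matched units in capitals and flanking bases in lower case, for the run of 3 units in HSPA8, HSP90AA1 and HSPD1 and for the pair in the other genes. In HSPD1 overlapping runs are shown as one.
HSPA1A, chr6:31815426-31815455, plus strand: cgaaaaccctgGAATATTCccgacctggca
HSPA1B, chr6:31827622-31827651, plus strand: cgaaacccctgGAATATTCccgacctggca
HSPA8, chr11:123062171-123062199, minus strand: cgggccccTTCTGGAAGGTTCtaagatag
DNAJB1, chr19:14518426-14518455, minus strand: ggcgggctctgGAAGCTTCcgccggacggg
HSP90AA1, chr14:102087112-102087140, minus strand: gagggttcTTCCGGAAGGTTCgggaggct
HSPB1, chr7:76302480-76302509, plus strand: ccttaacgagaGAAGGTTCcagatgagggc
HSPD1, chr2:197500062-197500090, minus strand: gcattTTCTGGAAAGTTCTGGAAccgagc
The stretches of HSPA1A and HSPA1B carry the same 8 letters in capitals at 106 and 105 bases before the start. The run of HSPD1 lies 245 to 228 bases before a start of HSPD1, between that start and the start of HSPE1 on the opposite strand. The stretches of HSPA1A, HSPA1B and HSPB1 lie upstream of the genes as GENCODE 29 annotates them, whereas those of HSPA8, DNAJB1, HSP90AA1 and HSPD1 lie inside the annotated genes, which have further starts upstream, and that of HSPD1 also lies inside the annotated HSPE1. No match was found for HSPH1, BAG3 and HSPE1, which says only that these letters are not in the windows searched.

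Each value is the number of reads on a gene after scaling to the depth of the library, called the normalised read count below, and the libraries held 1586566 to 2500551 reads on genes. A count of 3 reads, taken as the floor, corresponds to a normalised read count between 2.49 and 4.14, and it covers counting error only. Fold changes are differences of log2(normalised read count + 1), tested with limma over the 10495 genes that passed a filter on low counts, and a gene was called at a Benjamini-Hochberg adjusted p under 0.05. The third BAQ12 library stood apart from the other BAQ12 libraries (chi-square per gene 13.5 and 11.4, against 1.05 to 1.77 for pairs without these libraries), and the first BAQ13 library did so to a lesser degree (3.40 and 6.21). All 15 libraries share 1 estimate of the spread, so calls of the heat shock genes that changed without these are also given. Of the epithelial markers, KRT8, KRT18 and KRT19 were detected in every library, whereas EPCAM had at most 1 read and CDH1 at most 5 reads, although the labels name an epithelial cell. Of the mesenchymal markers, VIM had a median normalised read count of 10392, whereas CDH2 had at most 1 read in any library. Markers of blood and fibroblasts had at most 6 reads, and of the endothelial markers PECAM1 had 0 reads and CDH5 up to 79.

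**Figure D1:**
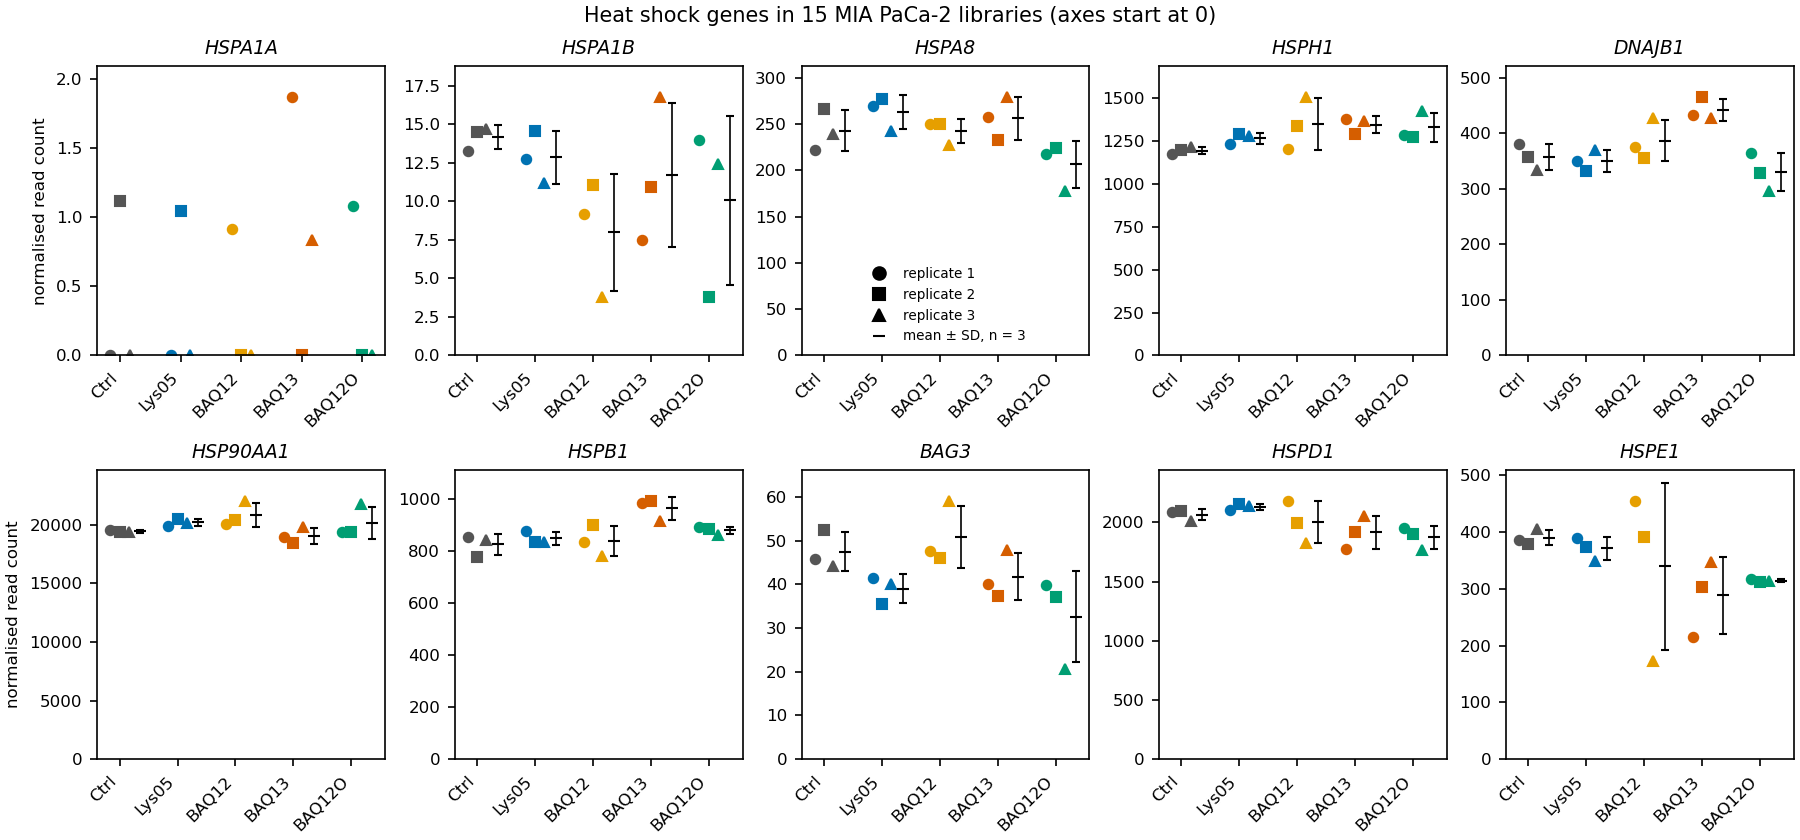
Normalised read counts (vertical axes, each starting at 0) of the 10 heat shock genes in the 15 libraries, by group (horizontal axes). Symbols are libraries by replicate number and black marks are the mean ± SD (n = 3), which is left out for HSPA1A because no library exceeded 2 reads. HSP90AA1 stayed between 18389 and 22006 in all libraries, and HSPE1 ranged from 173 in the third BAQ12 library to 455 in the first.

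The first question was whether any compound raised the heat shock genes over vehicle. HSPA1A (ENSG00000204389, chr6:31815464-31817946, plus strand) and HSPA1B (ENSG00000204388, chr6:31827735-31830255, plus strand) encode the stress-inducible HSP70, the classical marker of a heat shock response. HSPA1A had 7 reads in the 15 libraries together and at most 2 in any of them, which is under the floor in every group, so no fold change is given. HSPA1B was counted at 13.3, 14.5 and 14.7 with vehicle (14.2 ± 0.766; mean ± SD, n = 3). It was counted at 12.8, 14.6 and 11.2 with Lys05 and at 9.17, 11.1 and 3.77 with BAQ12. With BAQ13 the counts were 7.47, 10.9 and 16.8, and with BAQ12O they were 14.0, 3.81 and 12.4. All BAQ12 libraries lay under all vehicle libraries, and the other compounds overlapped vehicle. The lowest values, in the third BAQ12 library and the second BAQ12O library, were at 3 and 4 reads. With BAQ12 the log2 fold change was -0.86, SE 0.42, 95% interval -1.75 to 0.04 (limma, adjusted p = 0.437). The upper ends of the 95% intervals allowed at most 1.69-fold with Lys05, 1.03-fold with BAQ12, 1.49-fold with BAQ13 and 1.21-fold with BAQ12O relative to vehicle. The genes are near copies: 72.6% of the 50-base windows of the longest HSPA1A transcript also occur in HSPA1B, none of them among the last 300 windows, and how reads matching both were counted is not given in the sources used here. When both rows were summed, the test was not passed with any compound relative to vehicle (limma, smallest adjusted p = 0.442, with BAQ12).

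HSPA8 (ENSG00000109971, chr11:123057489-123063230, minus strand) encodes the constitutive cytosolic HSP70, which also carries substrates to lysosomes in chaperone-mediated autophagy. It was counted at 223, 267 and 239.6 with vehicle, at 269, 277 and 243 with Lys05 and at 250.4, 249.9 and 227 with BAQ12. With BAQ13 the counts were 258, 232 and 279 and with BAQ12O 218, 224 and 178. Every compound overlapped vehicle, and the lowest value was the third BAQ12O library. The log2 fold change with BAQ12O was -0.24, SE 0.11, 95% interval -0.47 to -0.00 (limma, adjusted p = 0.379). HSPH1 (ENSG00000120694, chr13:31134974-31162388, minus strand), the cytosolic HSP110 that reloads HSP70 with ATP and helps it to disaggregate proteins, was counted at 1172, 1196 and 1214 with vehicle. Its counts were 1229.8, 1289 and 1279.8 with Lys05, 1205, 1336 and 1505 with BAQ12, 1377, 1288 and 1367 with BAQ13 and 1285, 1276 and 1427 with BAQ12O. All Lys05, BAQ13 and BAQ12O libraries lay above all vehicle libraries, and 1 BAQ12 library overlapped them. The distances were small: the log2 fold change was 0.08 with Lys05, 0.17 with BAQ12, 0.17 with BAQ13 and 0.15 with BAQ12O, and none passed the test (limma, smallest adjusted p = 0.248, with BAQ13).

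DNAJB1 (ENSG00000132002, chr19:14514770-14529770, minus strand) encodes the main stress-inducible HSP40, the J-domain partner that delivers unfolded proteins to HSP70. With vehicle it was counted at 380.2, 357 and 333 (357 ± 23.5), and with BAQ13 at 433, 465 and 428 (442 ± 19.9; mean ± SD, n = 3). Lys05 gave 350.3, 331 and 369.7, BAQ12 gave 376, 356 and 427 and BAQ12O gave 364, 329 and 296. The BAQ13 libraries were the only group that lay wholly above the vehicle libraries, and they also lay above every library of Lys05, BAQ12 and BAQ12O. All BAQ13 libraries lay above all vehicle libraries for 14.5% of all genes tested. Relative to vehicle, DNAJB1 with BAQ13 was at 1.24-fold (95% interval 1.08 to 1.43), which did not pass the test (limma, adjusted p = 0.071). Without the third BAQ12 library, which belongs to neither group but shares the spread, the same difference passed (limma, adjusted p = 0.0125), as it did in a fit of only these 6 libraries (adjusted p = 0.0355), where 9.02% of all genes were called.

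HSP90AA1 (ENSG00000080824, chr14:102080738-102139699, minus strand) encodes the inducible cytosolic HSP90. It was counted at 19563, 19328 and 19334 with vehicle, 19909, 20472 and 20140.4 with Lys05 and 20039, 20406 and 22006 with BAQ12. BAQ13 gave 18901, 18389 and 19797 and BAQ12O gave 19394, 19337 and 21746. It was the steadiest of the 10 genes: the highest library exceeded the lowest by 1.20 times, and its SD over the 15 libraries on the log2 scale was at percentile 0.534 of all genes tested. The log2 fold changes relative to vehicle ran from -0.03 with BAQ13 to 0.10 with BAQ12, and the 95% intervals of all 4 comparisons lay between -0.17 and 0.24. HSPB1 (ENSG00000106211, chr7:76302544-76304295, plus strand), the small heat shock protein HSP27 that holds unfolding proteins without ATP and binds actin, was counted at 857, 779 and 843 with vehicle and at 985, 993 and 915 with BAQ13. The counts were 877, 837 and 835 with Lys05, 837, 899 and 781 with BAQ12 and 891, 885 and 864 with BAQ12O. The BAQ13 libraries again lay above all libraries of the other groups, and the BAQ12O libraries lay above vehicle by a smaller distance. With BAQ13 HSPB1 was at 1.17-fold (95% interval 1.05 to 1.30) relative to vehicle (limma, adjusted p = 0.084, or 0.0185 without the third BAQ12 library).

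BAG3 (ENSG00000151929, chr10:119651370-119677819, plus strand) encodes a cochaperone that exchanges the nucleotide of HSP70 and directs its cargo to autophagy. It was counted at 45.7, 52.5 and 44.1 with vehicle, 41.5, 35.4 and 40.1 with Lys05 and 47.7, 45.9 and 59.0 with BAQ12. With BAQ13 it was counted at 40.1, 37.4 and 47.8 and with BAQ12O at 39.9, 37.2 and 20.7. The Lys05 and BAQ12O libraries lay under all vehicle libraries, and the lowest value, in the third BAQ12O library, came from 15 reads in the library with the fewest reads of all. With BAQ12O the log2 fold change was -0.58, SE 0.21, 95% interval -1.02 to -0.13 (limma, adjusted p = 0.228). It passed only when the third BAQ12 and the first BAQ13 library were both left out (adjusted p = 0.0486).

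HSPD1 (ENSG00000144381, chr2:197486581-197516737, minus strand) and HSPE1 (ENSG00000115541, chr2:197499994-197503457, plus strand) encode HSP60 and its lid HSP10, which fold imported proteins in the mitochondrial matrix. They lie head to head on chromosome 2, and their annotated spans overlap on opposite strands in GENCODE 29. The exons were not compared. Where exons overlap, reads can be told apart only if strand was used in counting, which is not given in the sources used here. HSPD1 was counted at 2086, 2095 and 2011 with vehicle, 2101, 2153 and 2139 with Lys05 and 2181, 1998 and 1826 with BAQ12. It was counted at 1775, 1920.3 and 2052 with BAQ13 and 1955, 1904 and 1763 with BAQ12O. The Lys05 libraries lay above and the BAQ12O libraries under all vehicle libraries, at log2 fold changes of 0.05 and -0.14 that did not pass the test (limma, adjusted p = 0.999 and 0.459). HSPE1 was counted at 387, 379 and 405 with vehicle and 389.7, 374 and 350.0 with Lys05. BAQ12 gave 455, 391 and 173, BAQ13 gave 215, 303 and 348 and BAQ12O gave 318, 312 and 314. The BAQ13 and BAQ12O libraries lay under all vehicle libraries, the BAQ12O libraries within a narrow range, and the lowest values of all were the third BAQ12 and the first BAQ13 library, the same libraries that stood apart over all genes. The log2 fold change with BAQ13 was -0.46, SE 0.24, 95% interval -0.97 to 0.05 (limma, adjusted p = 0.318). Without the third BAQ12 library its interval narrowed to -0.69 to -0.23 (adjusted p = 0.00504), and without the first BAQ13 library as well the log2 fold change moved to -0.26 (adjusted p = 0.032). With BAQ12O HSPE1 fell by 0.31 on the log2 scale when both libraries were left out (adjusted p = 0.00477), or when only the 6 libraries compared were fitted (0.0053, where 8.3% of all genes were called), against an adjusted p of 0.643 with all libraries. Near copies leave the levels of several members uncertain: 15.4% of the 50-base windows of the longest HSPA8 transcript, 17.5% for HSP90AA1, 11.4% for HSPB1, 24.8% for HSPD1 and 17.8% for HSPE1 also occur in transcripts of other genes. Of the last 300 windows, nearest to the 3′ end, 30.3% were shared for HSPB1 and 27% for HSPE1, and 4.33% or less for the other 3. The named pseudogenes held at most 0.571% of the summed reads.

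**Figure D2:**
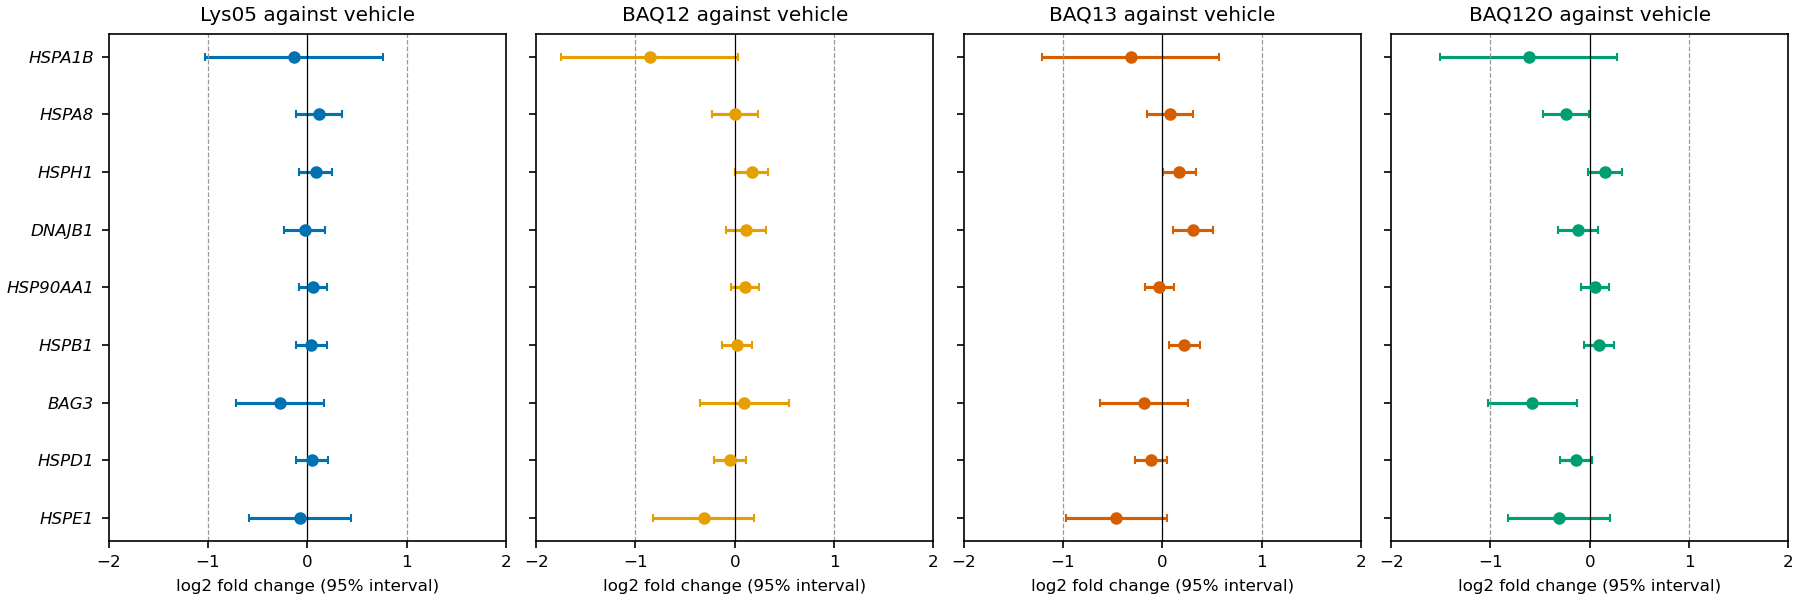
Log2 fold changes of the 9 heat shock genes tested (rows) for each compound relative to vehicle, with limma's 95% intervals as bars and dashed lines at a doubling and a halving. The points of DNAJB1 and HSPB1 with BAQ13 are at 0.31 and 0.22, and the widest intervals belong to HSPA1B.

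Counted together, 9 of the 10 genes passed the filter, which only HSPA1A failed. Since the libraries are of bulk RNA, a change in some cells and a change in RNA per cell cannot be told apart. limma called 0 of the 9 with Lys05, BAQ12, BAQ13 and BAQ12O relative to vehicle, where 0.238%, 0.981%, 5.77% and 1.48% of all genes tested were called, and edgeR and DESeq2 on the recovered reads also called 0 in each. At an unadjusted p under 0.05 limma gave 0 with Lys05, 1 with BAQ12 (HSPH1), 3 with BAQ13 (DNAJB1, HSPB1 and HSPH1) and 2 with BAQ12O (BAG3 and HSPA8), where 4.98%, 11.8%, 19.4% and 12.8% of all genes tested did so. The median log2 fold change of the 9 genes was 0.04 with Lys05, 0.02 with BAQ12, -0.03 with BAQ13 and -0.14 with BAQ12O, and that of all genes tested was within 0.01 of 0 in each. All libraries of the compound lay above all vehicle libraries for 3 genes with Lys05, 1 with BAQ12, 3 with BAQ13 and 2 with BAQ12O, where 8.24%, 7.75%, 14.5% and 12.5% of all genes did so. They lay below for 1, 1, 1 and 3 genes, where 7.37%, 7.61%, 14.4% and 13.3% of all genes did so. Without the third BAQ12 library, 3 of the 9 genes were called with BAQ13 (DNAJB1 and HSPB1 higher, HSPE1 lower), where 13.7% of all genes were called. The 4 comparisons share the vehicle libraries and so are not independent of one another.

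The second question was whether the compounds differed from each other at the matched dose and time, and all 6 pairs were compared. Only 1 difference among the heat shock genes passed in its comparison: DNAJB1 was lower with BAQ12O (329.9 ± 34.0) than with BAQ13 (442 ± 19.9), without overlap of the libraries. The log2 difference was -0.43, SE 0.10, 95% interval -0.63 to -0.22 (limma, adjusted p = 0.0341), in a comparison where 1.39% of all genes tested were called. Adjusted over the tests of all 6 pairs together, it no longer passed (adjusted p = 0.0523), and 5 of the 6 fits that left out 1 of its libraries also lost it, as did the fit with a replicate block (adjusted p = 0.0722) and the one without a filter on low counts (adjusted p = 0.06). Leaving out the third BAQ12 library, which is in neither group, gave an adjusted p of 0.00226 (limma), where 3.69% of all genes were called. In the other 5 pairs, with all libraries, limma called 0 of the 9 genes, as did edgeR and DESeq2. At an unadjusted p under 0.05 limma gave 0 genes for BAQ12, 2 for BAQ13 and 2 for BAQ12O relative to Lys05, where 7.17%, 14.6% and 7.36% of all genes did so, and 1 for BAQ13 and 3 for BAQ12O relative to BAQ12, where 8.27% and 8.38% did so. For BAQ12O relative to BAQ13 it was 2 genes, against 11.2% of all genes. All genes tested were called at 0.248% for BAQ12O relative to Lys05 and at 0.229% for BAQ12O relative to BAQ12, and at the shares given below for the other 3 pairs.

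BAQ12 and BAQ13, which differ in the length of the hydrocarbon tail, gave log2 differences (BAQ13 relative to BAQ12) of 0.20 for DNAJB1 with a 95% interval of -0.01 to 0.40, and 0.20 for HSPB1 with an interval of 0.05 to 0.36. Both genes were higher in every BAQ13 library than in every BAQ12 library, and neither passed the test (limma, adjusted p = 0.629 and 0.394). In this pair 0.562% of all genes tested were called, and all BAQ13 libraries lay above all BAQ12 libraries for 6.02%. HSPE1 was called lower with BAQ13 than with BAQ12 only when the third BAQ12 library, the lowest of its group, was left out. The log2 difference was then -0.57 (limma, adjusted p = 0.00817), where 3.16% of all genes were called. With all libraries it was -0.15 (adjusted p = 0.932). BAQ13 relative to Lys05 gave 0.33 for DNAJB1, with an interval of 0.13 to 0.54 (limma, adjusted p = 0.0816, or 0.0116 without the third BAQ12 library), where 2.66% of all genes were called with all libraries and 7.76% without that one. In this pair HSPE1 was also called lower without that library (log2 difference -0.39, limma, adjusted p = 0.0279, against 0.515 with all libraries). All BAQ13 libraries lay above all Lys05 libraries for 12.3% of all genes. BAQ12 relative to Lys05, the compound without a tail of this kind, differed by 0.14 for DNAJB1 and -0.02 for HSPB1, with intervals of -0.07 to 0.34 and -0.17 to 0.13, where 0.162% of all genes were called. The constitutive HSPA8 was lower in every BAQ12O library than in any library of Lys05, BAQ12 or BAQ13, by -0.35, -0.24 and -0.31 on the log2 scale, and none of these passed with all libraries (limma, adjusted p = 0.403, 0.591 and 0.244). Libraries lay wholly below in this way for 9.19%, 4.94% and 9.32% of all genes in these pairs. Relative to Lys05, HSPA8 passed with BAQ12O in the fit of those 6 libraries alone (limma, adjusted p = 0.0284), where 2.12% of all genes were called. It also passed when the third BAQ12 and first BAQ13 libraries were both left out (0.0209), where 2.49% were called, and in that fit HSPD1 was lower too (log2 difference -0.19, adjusted p = 0.0369, against 0.566 with all libraries).

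The rest of the chaperone network was described with 81 further genes in 9 lists, of which 65 passed the filter. limma called 4 of the 65 with BAQ13 relative to vehicle, where 5.77% of all genes were called, and 0 with Lys05, BAQ12 and BAQ12O. At an unadjusted p under 0.05 it gave 1, 10, 15 and 9 of the 65 with Lys05, BAQ12, BAQ13 and BAQ12O, where 4.98%, 11.8%, 19.4% and 12.8% of all genes did so. The share called was near that of all genes, so the 4 genes are described singly. UBB (ENSG00000170315), which encodes a polyubiquitin precursor and is among the known HSF1 targets, was counted at 2328, 2451 and 2334 with vehicle and at 2882, 2764 and 2906 with BAQ13. The counts were 2319, 2347 and 2266 with Lys05, 2264, 2434 and 2600.1 with BAQ12 and 2597, 2526 and 2949 with BAQ12O. The BAQ13 and BAQ12O libraries lay above all vehicle libraries, and the highest value of all was the third BAQ12O library. With BAQ13 UBB rose from 2371 ± 69.3 to 2851 ± 75.8 (log2 fold change 0.27, limma, adjusted p = 0.0364). SERPINH1, the collagen chaperone HSP47 of the endoplasmic reticulum and 1 of the other 2 tested genes of the same list, had values in the other direction. It was counted at 165, 209.9 and 178 with vehicle, 159.6, 149 and 76.6 with BAQ12 and 106, 131 and 146 with BAQ13, lower in all libraries of both compounds. With BAQ13 its log2 fold change was -0.53 (limma, adjusted p = 0.15, or 0.00236 without the third BAQ12 library). DEDD2, the remaining tested gene of that list, had values in the direction of UBB. It was at 38.9 ± 6.64 with vehicle, 51.2 ± 6.52 with BAQ13 and 53.4 ± 2.13 with BAQ12O. Its BAQ12, BAQ13 and BAQ12O libraries lay above all vehicle libraries, where 7.75%, 14.5% and 12.5% of all genes did so. DEDD2 was not called relative to vehicle. ST13, the HSP70-interacting protein HIP that slows the release of substrate, rose from 476 ± 43.9 to 586 ± 12.0 (log2 fold change 0.30, limma, adjusted p = 0.0283). Relative to Lys05 UBB and ST13 both passed in that comparison (limma, adjusted p = 0.0308 and 0.0481) and not when adjusted over the 6 pairs together (0.0711 and 0.111). Among the other J-domain genes, DNAJC8 did the same for BAQ12O relative to BAQ13 (log2 difference -0.34, limma, adjusted p = 0.0476, or 0.0745 over the 6 pairs).

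The genes that fell were subunits of TRiC, the cytosolic chaperonin that folds actin and tubulin. CCT5 was counted at 1271, 1257 and 1255 with vehicle and at 1017, 999.8 and 1002 with BAQ13, and fell by 0.33 on the log2 scale (limma, adjusted p = 0.00841). CCT2 went from 460.0, 488 and 448 to 359, 347 and 381 and fell by 0.36 (limma, adjusted p = 0.0411). Neither gene overlapped vehicle. Of the 14 TRiC and prefoldin genes, all of which were tested, 2 were called lower with BAQ13 and none higher, where 5.77% of all genes were called. The log2 fold change was below 0 for 13 with BAQ13 and 13 with BAQ12O, at medians of -0.18 and -0.18, and for 50.5% of all genes in both comparisons. With BAQ12O none was called (limma, smallest adjusted p = 0.203), and all BAQ12O libraries lay under vehicle for 9 of the 14, as for 13.3% of all genes. Like HSPE1, TCP1 was lowest in the third BAQ12 library (887, 899 and 465) and next lowest in the first BAQ13 library (654, 824 and 965), against 919.9, 947 and 1026 with vehicle. Without both libraries 6 of the 14 genes were called lower with BAQ13 and 6 with BAQ12O, where 12% and 9.28% of all genes were called.

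**Figure D3:**
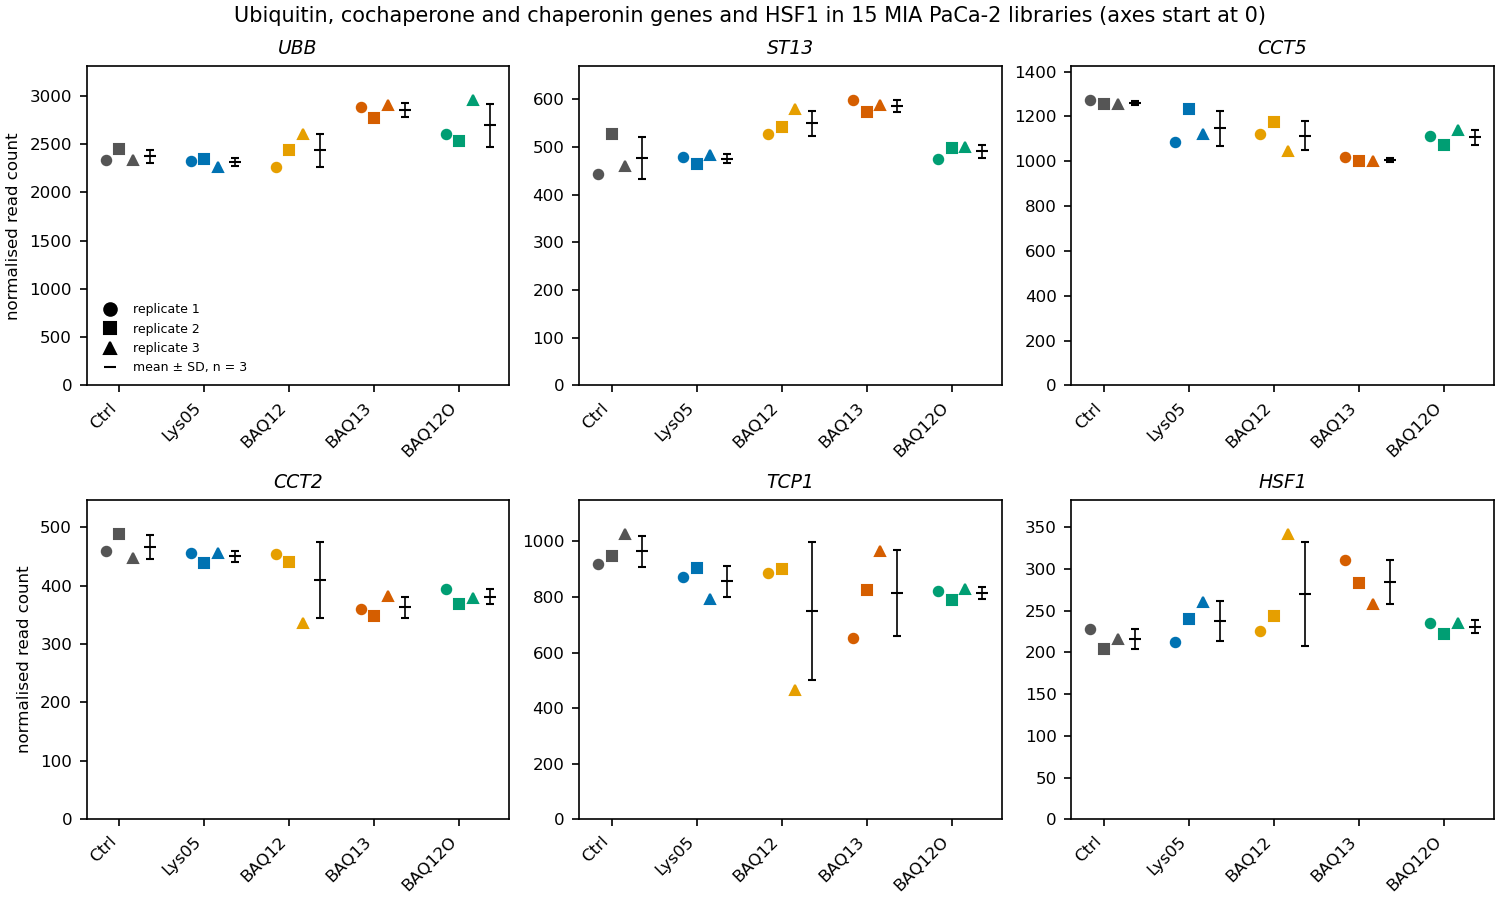
Normalised read counts (vertical axes, each starting at 0) of 5 further chaperone and ubiquitin genes and of HSF1 in the 15 libraries by group; symbols are replicate numbers and black marks the mean ± SD (n = 3). The 4 genes called with BAQ13 are shown with TCP1 and HSF1, which were added after their values were seen, and the CCT5 counts, between 999.8 and 1017 with BAQ13, lie under all vehicle libraries.

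With all libraries the remaining lists gave no call relative to vehicle with any compound. Without the third BAQ12 library, 2 further J-domain genes passed: DNAJB6 was higher with BAQ13 (log2 fold change 0.49, limma, adjusted p = 0.00211, against 0.132 with all libraries), and DNAJA1 was lower with BAQ12O (-0.36, adjusted p = 0.0107, against 0.065). In those fits 13.7% and 4.99% of all genes were called. HSF1, the transcription factor of the response, was counted at 227, 204 and 217 with vehicle and 311, 283 and 258 with BAQ13, without overlap (log2 fold change 0.39, limma, adjusted p = 0.0938, or 0.00474 without the third BAQ12 library). The HSF1-inducible HSPA6, an HSP70 that most unstressed cells lack, did not exceed a normalised read count of 1.68. Of the 8 other small heat shock genes none passed the filter, and CRYAB and HSPB8 had 0 reads in every library. HSP90AB1, the constitutive paralogue of HSP90AA1, was counted at 8630.3 ± 162 with vehicle and 9408 ± 288 with BAQ13, at a log2 fold change of 0.12 with a 95% interval of -0.03 to 0.28. HSPA9, the mitochondrial HSP70 that pulls proteins through the inner membrane, was at -0.01 with BAQ13 and -0.14 with BAQ12O. Of the 14 mitochondrial chaperones and proteases of that list, HSPA9 among them, 11 were below 0 with BAQ13 and 11 with BAQ12O. The medians were -0.07 and -0.15 (limma, smallest adjusted p = 0.153 and 0.299). Of all genes tested, 50.5% were below 0 in each comparison. All libraries of the compound lay under vehicle for 4 of the 14 in each, where 14.4% and 13.3% of all genes did so. SERPINH1, DEDD2, DNAJB6, DNAJA1, DNAJC8, HSF1, HSPA6, CRYAB, HSPB8, HSP90AB1 and HSPA9 were picked from their lists after their values were seen.

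**Figure D4:**
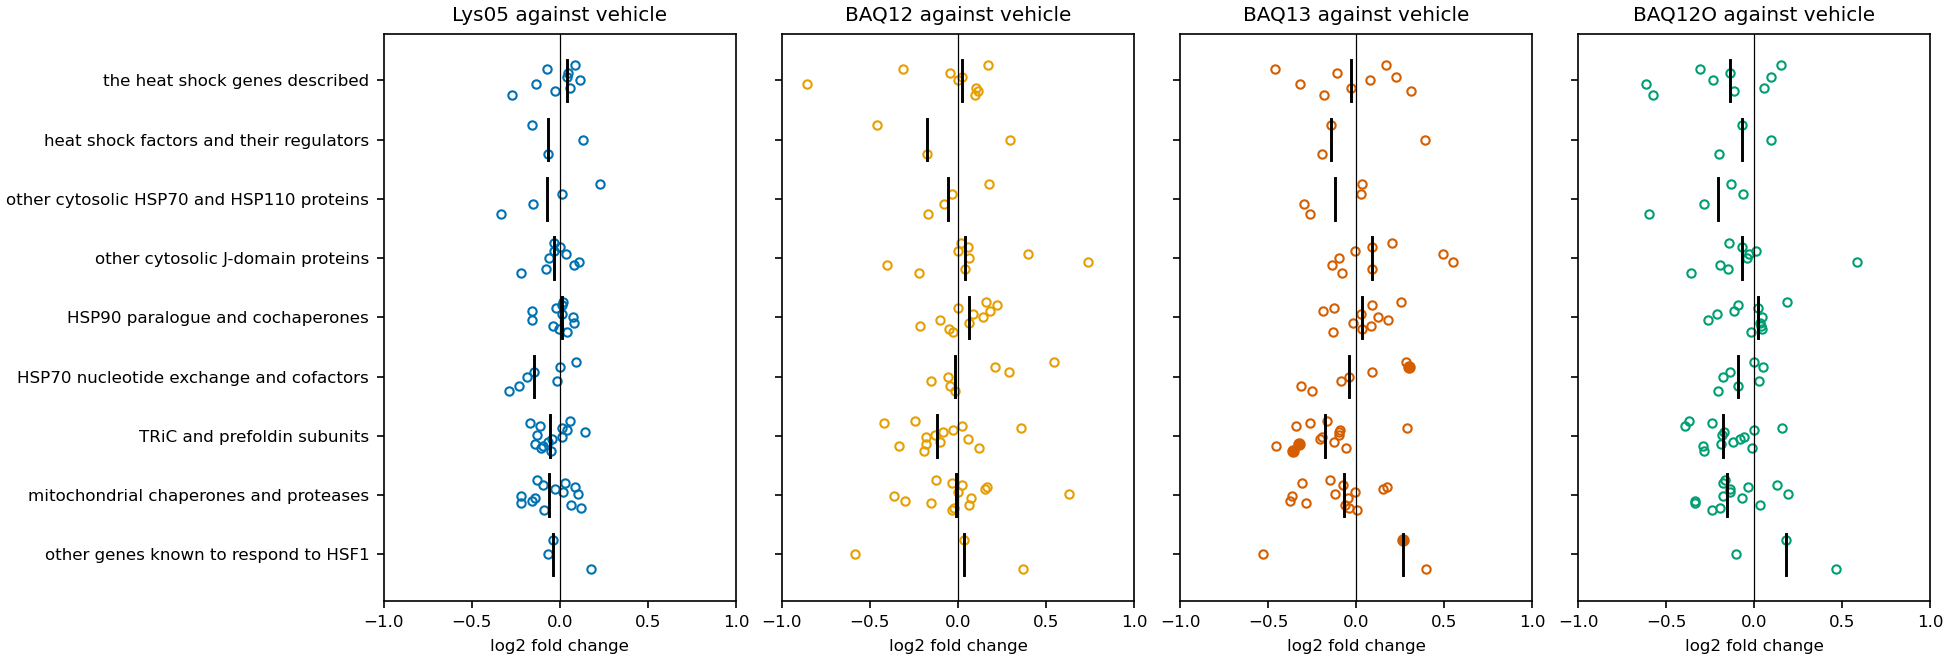
Log2 fold changes relative to vehicle (horizontal axes) of the heat shock genes and of 8 further chaperone lists (rows), 1 circle per gene tested, filled where limma's adjusted p was under 0.05, with the list's median as a black bar. The 4 filled circles are all in the BAQ13 panel, 2 to the right of 0 (ST13 and UBB) and 2 to the left (CCT2 and CCT5).

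Across the 15 libraries the genes did not move as 1 group. The genes outside the lists whose log2 values followed each member most closely differed from member to member, as a description over libraries that share depth, size factors and the libraries that stood apart. HSPE1 ran with SNRPF (Pearson r = 0.986, n = 15) and TMSB4X (r = 0.982), DNAJB1 with LGALS1 (r = 0.932) and SLC25A6 (r = 0.925), and HSPD1 with SLC35F5 (r = 0.926) and PDIA6 (r = 0.916). HSPH1 ran with RP11-736K20.5 (r = 0.930) and CHMP2A (r = 0.911), BAG3 with RAB8A (r = 0.886) and POLD3 (r = 0.881), and HSPB1 with PSAP (r = 0.880) and CENPI (r = 0.874). HSPA1B ran with DUSP5 (r = 0.905) and SLC3A2 (r = 0.874), HSPA8 with ZBTB2 (r = 0.846) and BBS7 (r = 0.815), and HSP90AA1 with PLXNA1 (r = 0.829) and INTS6-AS1 (r = 0.828). Among the members themselves, the highest r was 0.773, between HSPE1 and HSPD1, and the lowest was -0.778, between HSPE1 and HSPH1. All other pairs lay between these. Over the 14 libraries without the third BAQ12 library the same pairs were at 0.800 and -0.625.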

How the data were processed

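Gene expression was measured by RNA-seq in 15 libraries of MIA PaCa-2 cells, with 5 groups of 3 as labelled. Per gene and library the authors deposited a normalised signal, which is a read count over the library's size factor. STAR, HTSeq, DESeq2 and GRCh38 (hg38) are named in the submitters' processing notes, without versions. The labels name a 3′ mRNA kit and the study's methods a stranded paired-end kit, which the files cannot resolve. Whether counts scale with transcript length depends on the kit, so levels were not compared between genes. All non-zero values (100%, tolerance 0.01) were whole multiples of 1 step per library, so whole reads were recovered. The 92 spike-in rows held 0 reads.

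limma (eBayes, variance trend) was fitted to log2(value + 1) over all 15 libraries without covariates, after edgeR's filterByExpr on the recovered reads (minimum count 10, minimum total 15; 10495 genes), with Benjamini-Hochberg adjustment over all genes tested. The scripts were tested on simulated data. The alternatives were edgeR's quasi-likelihood test, DESeq2, pseudocounts of 0.1 and 5, TMM factors, other filters, fits of the 6 libraries of a comparison alone, a replicate block, and leaving out each library. Leaving out the third BAQ12 and the first BAQ13 library together was added after seeing the data. The members and the lists were chosen with earlier results of these data known. All members are named, and from the lists the genes called relative to vehicle, at most 6 per list; 1 gene of the lists is not reported here and is left out of their counts. For each member the 2 genes with the highest Pearson r were also named. Agreement between libraries was measured as chi-square per gene, within groups only. It was 1.05 for the closest pair (vehicle libraries 2 and 3), near the value of 1 for counting noise alone. It was 1.77 or less for all pairs without BAQ12 library 3 and BAQ13 library 1, and 3.40 to 13.5 with them. Positions are from GENCODE 29 (GRCh38), in which all 10 members were found, and promoters from RefSeq (GRCh38.p14). Fits were run in R 4.3.3 with DESeq2 1.42.0, edgeR 4.0.16 and limma 3.58.1, and figures drawn in matplotlib 3.10.9 under Python 3.11.15 with pandas 2.3.3.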

Additional observations from a re-analysis of the deposited data

Results flagged for a closer look

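DNAJB1 is listed because the direct test between BAQ12O and BAQ13, given against the same vehicle, found a difference in its comparison (log2 difference -0.43, limma, adjusted p = 0.0341, lower in 3 of 3 BAQ12O libraries). It did not pass when adjusted over all 6 pairs together (adjusted p = 0.0523), with a replicate block (0.0722) or without a filter on low counts (0.06).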

How the results depend on the processing

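The number of heat shock genes called depended mainly on which libraries entered the spread. With only the 6 libraries compared, 2 genes were called for BAQ13 (DNAJB1 and HSPE1) and 1 for BAQ12O (HSPE1) relative to vehicle, 1 for BAQ13 relative to Lys05 (DNAJB1) and 1 for BAQ12O relative to Lys05 (HSPA8), where 9.02%, 8.3%, 3.71% and 2.12% of all genes were called. Leaving out single libraries gave 0 to 3 genes for BAQ13 relative to vehicle, 0 to 2 relative to Lys05, 0 to 1 relative to BAQ12, and 0 to 1 for BAQ12O relative to BAQ13, the highest counts of the first 3 without the third BAQ12 library. Without the third BAQ12 and first BAQ13 libraries together, the counts were 3 for BAQ13 and 2 for BAQ12O relative to vehicle, 1 and 2 relative to Lys05, and 1 and 1 relative to BAQ12, where 12%, 9.28%, 6.01%, 2.49%, 2.28% and 2.74% of all genes were called. In that setting HSPE1 was lower with BAQ12O than with BAQ12 (log2 difference -0.42, limma, adjusted p = 0.00146), whereas it was at 0.00467 with all libraries. Without a filter on low counts, where more genes are tested, 0 genes were called for BAQ12O relative to BAQ13 (DNAJB1, adjusted p = 0.06). Other causes were not tested.

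The replicate numbers shared by the groups gave no steady sign of pairing: deviations of same-numbered libraries correlated between -0.492 and 0.2, and only some pairs exceeded 0.1. These are deviations from means of 3 libraries, so they do not settle whether same-numbered libraries shared a batch. With the replicate block, 0 genes were called for BAQ12O relative to BAQ13 (DNAJB1, adjusted p = 0.0722), and the counts in the other 9 comparisons stayed at 0. edgeR, DESeq2, the pseudocounts, TMM factors and a minimum of 10 reads in every library gave the same counts of calls in all 10 comparisons. The summed HSPA1A and HSPA1B stayed below 0 relative to vehicle when single libraries were left out, from -0.26 to -0.03 with Lys05, -1.09 to -0.42 with BAQ12, -0.48 to -0.06 with BAQ13 and -0.95 to -0.08 with BAQ12O. Over 1484 alternative values of the members, 21 were called only in the alternative, 7 were lost, and 64 changed sign with neither called. The depth limits HSPA1A and HSPA1B most, with at most 20 reads in a library.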
